A study of Mus musculus with 4 samples.

Results

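RYBP occupancy was described at 10 transcription factor genes of the primitive streak and the mesoderm that leaves it: T (Brachyury), Eomes, Mixl1, Gsc, Lhx1, Evx1, Mesp1, Mesp2, Tbx6 and Msgn1. The genes were taken by name, with earlier results of these data known, from the 22202 protein-coding gene symbols that the GENCODE annotation of the mouse mm9 genome places on chromosomes 1 to 19 and X. The locus of a gene was its body with 5 kb upstream of the first start site, and every region or peak that shared at least 1 bp with it was read. All 10 genes were found, and 14 of the 22409 merged RYBP regions lay at their loci. By replicate, they held 12 of the 14794 peaks of replicate 1 and 15 of the 18154 peaks of replicate 2.

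RYBP was immunoprecipitated with an anti DEDAF antibody, DEDAF being another name of the protein, and the DNA was sequenced. The 2 ChIP samples, WT1 and WT2, are called replicate 1 and replicate 2 here. By the labels, each came from wild-type mouse embryonic stem cells, strain C57Bl/6 X Sv129, grown as embryoid bodies to day 3.75 and sorted for the receptor FLK1, which marks mesoderm able to form blood and vessels. No other genotype, treatment or time was included, and the 2 input samples of the same cells were not analysed here. The sorted cells are a mixed population made in culture, and the sources differ on them. The methods give another day for this ChIP than the labels and name J1 embryonic stem cells, and the series' design text speaks of SCL ChIP and of FLK1+ PDGFRa- cells. The labelled mesoderm could not be checked against its markers, since the files hold peaks and no expression. The peak lists carry no read depth. By the read totals in the study's methods, replicate 2 was the less deeply sequenced ChIP sample, and its list is the longer. The 2 samples of 1 group allow no test, so the main counts are set beside the same share over all genes or all regions.

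RYBP is a subunit of non-canonical Polycomb repressive complex 1, which places ubiquitin on histone H2A and holds developmental genes at low expression. The complex is found above all at CpG-rich start sites. In the gastrulating embryo, Nodal, Wnt and BMP signals switch on T-box and homeobox factors in the primitive streak, and bHLH and T-box factors then direct the cells that leave it toward cardiovascular or paraxial mesoderm. In FLK1+ cells on the way to blood, the study treats the cardiac and paraxial programmes as alternative fates.

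A merged region found in both replicates lay over a start site of 8 of the 10 genes, and the 8 included all 6 streak factors and the Mesp pair. Tbx6 and Msgn1, factors of the paraxial mesoderm like Mesp2, each had a peak in a single replicate. The bases just before the first start site, 200 in each, are shown from the mm9 genome sequence for 6 genes, 5′ to 3′ in the direction of the gene, with every CpG in capitals. T and Gsc are shown as streak genes covered in both replicates, Mesp1 and Mesp2 as start sites that a peak reached in 1 replicate alone, and Tbx6 and Msgn1 as the genes with no shared region.
T, chr17:8627088-8627287, plus strand: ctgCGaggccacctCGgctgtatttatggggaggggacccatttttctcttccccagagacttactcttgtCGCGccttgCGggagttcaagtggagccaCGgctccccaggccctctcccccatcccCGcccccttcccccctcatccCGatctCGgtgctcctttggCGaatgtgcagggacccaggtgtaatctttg
Gsc, chr12:105711538-105711737, minus strand: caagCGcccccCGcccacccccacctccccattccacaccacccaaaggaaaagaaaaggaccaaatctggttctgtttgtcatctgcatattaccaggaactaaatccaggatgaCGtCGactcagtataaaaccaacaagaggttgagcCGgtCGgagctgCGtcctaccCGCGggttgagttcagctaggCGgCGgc
Mesp1, chr7:86938675-86938874, minus strand: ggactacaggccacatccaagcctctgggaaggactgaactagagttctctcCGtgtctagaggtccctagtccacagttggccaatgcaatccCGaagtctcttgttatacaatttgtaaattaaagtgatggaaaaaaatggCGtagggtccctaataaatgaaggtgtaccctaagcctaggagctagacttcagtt
Mesp2, chr7:86955413-86955612, plus strand: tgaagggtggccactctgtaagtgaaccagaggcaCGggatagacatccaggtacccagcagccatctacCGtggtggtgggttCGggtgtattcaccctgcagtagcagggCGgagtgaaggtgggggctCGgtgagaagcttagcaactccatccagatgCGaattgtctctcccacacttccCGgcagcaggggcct
Tbx6, chr7:133924797-133924996, plus strand: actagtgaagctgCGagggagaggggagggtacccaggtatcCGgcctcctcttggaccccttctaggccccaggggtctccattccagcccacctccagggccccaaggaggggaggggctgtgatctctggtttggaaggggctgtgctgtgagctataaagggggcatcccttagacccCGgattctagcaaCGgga
Msgn1, chr12:11215755-11215954, minus strand: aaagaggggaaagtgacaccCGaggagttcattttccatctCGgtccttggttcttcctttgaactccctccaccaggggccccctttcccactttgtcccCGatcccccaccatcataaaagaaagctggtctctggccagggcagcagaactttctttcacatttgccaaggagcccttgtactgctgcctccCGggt

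These windows held 10 CpG at T, 11 at Gsc, 3 at Mesp1, 7 at Mesp2, 4 at Tbx6 and 4 at Msgn1, against a median of 7 over the windows of all 22202 genes. At T, all 200 bases lay under a peak in both replicates. At Gsc, the peak of replicate 1 covered 200 bases and that of replicate 2 covered the 72 bases nearest the start. At Mesp1, the window lay wholly inside the peak of replicate 2 and outside that of replicate 1. At Mesp2, replicate 1 covered 99 bases and replicate 2 covered 0. At Msgn1, replicate 1 covered 146 bases and replicate 2 covered 0, and at Tbx6 neither replicate covered any base. The windows of Eomes, Lhx1 and Evx1 overlap a transcript and are not printed, and that of Mixl1 is named only.

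Recognition sequences of 5 factor families were looked for on both strands of these windows for 9 of the genes, those matched in the RefSeq promoter table of build GRCm38.p6. The T-box core site AGGTGTGA, the TCF/LEF sequence ATCAAAG, the FOXH1 sequence AATCCACA and the GATA sequence AGATAA matched 0 of the 9 windows, against 0.752%, 2.31%, 0.563% and 6.91% of all windows of this length. The E-box CANNTG, which reads the same on both strands, matched 6 of the 9 windows against 54.6% of all windows. It was present 2 times each before T and Evx1 and 1 time each before Gsc, Mesp1, Mesp2 and Msgn1. The shares of all windows are over all 22202 genes, which were not limited to those in the promoter table as the 9 were. A match describes the letters alone, and no match says only that these letters are not in this window.

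All 10 loci held a merged region, against a background of 57.1% of all loci. A merged region is a union of the peaks of both replicates, so a region present in both is the stricter reading: 8 of the 10 loci held one, against 38.9% of all loci. Long loci meet regions more often, and among the 7153 loci within the length range of these genes, 5567 to 13074 bp, 38.8% held a merged region and 26.7% held one found in both replicates. Within 2.5 kb of a start site, 9 of the 10 genes had a merged region and 8 had one found in both, against 53.4% and 36.8% of all genes. Each replicate on its own had peaks at 9 of the 10 loci, with Tbx6 missing from replicate 1 and Msgn1 from replicate 2. Over all 22202 loci, 9744 had a peak in replicate 1 and 11911 in replicate 2.

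**Figure D1:**
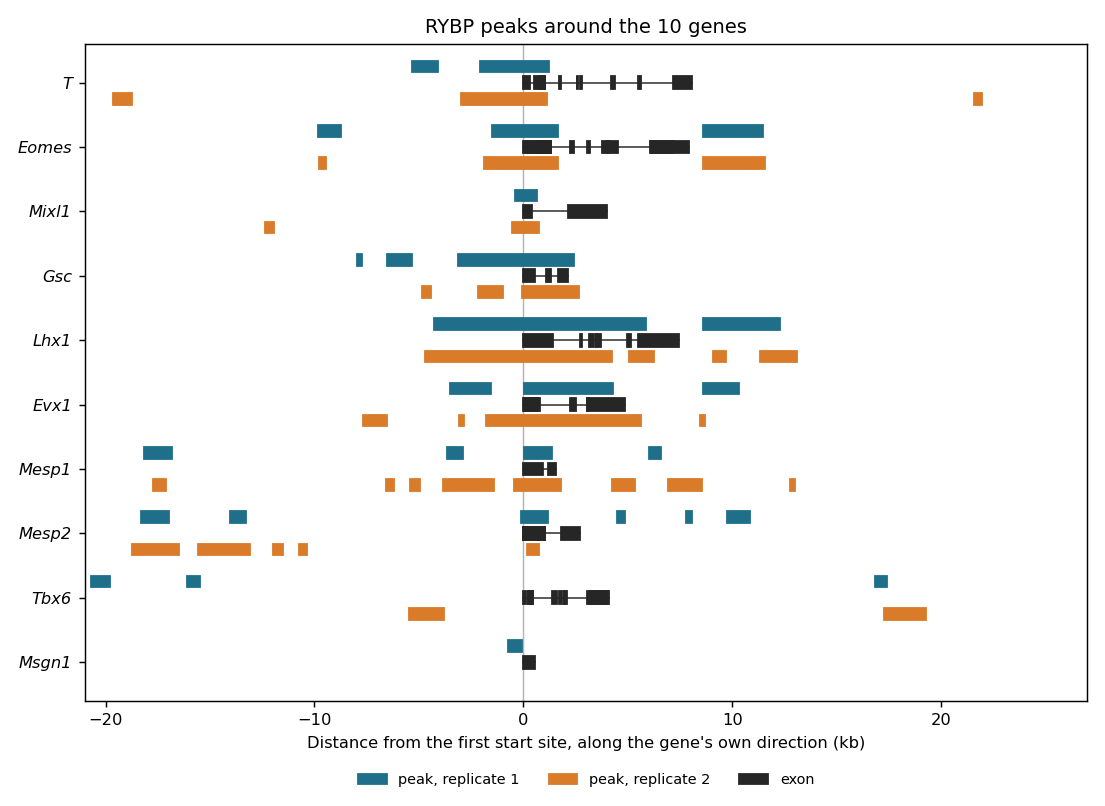
Peaks of replicate 1 (blue, above each gene) and replicate 2 (orange, below each gene) around the 10 genes, with exons in black; the horizontal axis is the distance in kb from the first start site, with the gene running to the right, and peaks within about 20 kb of each gene are drawn. An Eomes peak of replicate 1 that begins 27902 bp after the start lies past the right edge and is not shown. Peaks of both replicates cross the start site or come within 200 bp of it in the upper 8 rows. Tbx6 and Msgn1 have peaks near the gene in 1 replicate alone.

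Of the 14 regions at the loci, 9 were found in both replicates, 2 in replicate 1 alone and 3 in replicate 2 alone. The share found in both was 64.3% (exact Clopper-Pearson 95% interval 35.1 to 87.2, counting error over these regions only), against 44.2% of all merged regions. With 20 kb taken on both sides of the genes, the share was 41.7%, below that of all merged regions. The 9 shared regions were 1266 to 10951 bp wide, with a fold enrichment of ChIP over background of 3.03 to 6.84 and a −log10 q of 1.60 to 13.6 in their peaks. The 5 regions found in 1 replicate were 432 to 1683 bp wide, with a fold enrichment of 3.02 to 3.34 and a −log10 q of 1.24 to 1.72. The single-replicate regions therefore lay near the low end of the lists, whose lowest −log10 q was 1.00 in replicate 1 and 1.01 in replicate 2. Peaks without a partner in the other list were also of low significance over the genome, with a median −log10 q of 1.45 for the 4587 of replicate 1 and 1.75 for the 7921 of replicate 2.

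T, the founding T-box factor, drives the formation of posterior mesoderm and notochord and lies at chr17:8627288-8635361 on the plus strand (ENSMUSG00000062327.3). Its main region, chr17:8624283-8628520, spanned 4238 bp from 3005 bp before to 1232 bp after the first start site and held both annotated start sites. Within the gene it took in 374 bp of untranslated, 471 bp of coding and 388 bp of intron sequence. The fold enrichment was 3.65 in replicate 1 and 3.88 in replicate 2, the closest pair among the 8 genes with peaks in both, and −log10 q was 3.38 and 3.65. A second region of 1277 bp, 5353 to 4077 bp upstream, was found in replicate 1 alone at 3.06-fold, 1072 bp from the nearest peak of replicate 2.

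Eomes, a T-box factor needed for mesoderm to leave the streak and for definitive endoderm, lies at chr9:118387330-118395250 on the plus strand (ENSMUSG00000032446.8). Its single region, chr9:118385457-118388980, was 3524 bp wide and covered all 3 start sites, from 1873 bp before to 1650 bp after the first. The fold enrichment was 3.64 and 4.24 in replicates 1 and 2. The peaks of the replicates had nearly the same bounds: 88.6% of the bases covered in either replicate were covered in both, the highest share among these genes. Outside the locus, a shared region of 1123 bp lay 9837 to 8715 bp upstream (3.0 and 3.51-fold), and one of 3006 bp began 8582 bp after the start, past the end of the gene (2.85 and 3.53-fold).

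Mixl1, a paired-type homeobox factor of the streak that patterns mesendoderm, lies at chr1:182623174-182627165 on the minus strand (ENSMUSG00000026497.7). It had the narrowest of the shared regions, 1266 bp at chr1:182626438-182627703, from 538 bp before to 727 bp after the start site. The fold enrichment was 3.64 in replicate 1 and 4.38 in replicate 2, with a −log10 q of 5.17 and 7.10. This region was also the richest in CpG of the 14, at 7.58 per 100 bp, and of its bases inside the gene 393 were coding, 22 untranslated and 313 intronic.

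Gsc, a homeobox repressor of the anterior streak and organiser, lies at chr12:105709419-105711537 on the minus strand (ENSMUSG00000021095.3). The region chr12:105708851-105714688, 5838 bp wide, took in the whole gene, with 3151 bp upstream of the start and 568 bp past the end, and also touched the annotated gene Gm10000. Replicate 1 had 1 peak there at 4.21-fold, and replicate 2 had 2 peaks at 5.81 and 5.75-fold with a gap between them upstream of the start. Its −log10 q reached 4.78 and 8.91. A further peak of 432 bp, 4870 to 4439 bp upstream, was found in replicate 2 alone at 3.09-fold and ended 449 bp from the nearest peak of replicate 1.

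Lhx1, a LIM homeobox factor of the anterior streak and head organiser, later needed in kidney mesoderm, lies at chr11:84331479-84338923 on the minus strand (ENSMUSG00000018698.7). It had the widest region of the set, 10951 bp at chr11:84332691-84343641, and 56 of the 22409 merged regions were at least this wide. The region ran from 4718 bp before to 6232 bp after the first start site, held both start sites and also covered the lincRNA 1500016L03Rik. Replicate 1 called it as 1 peak of 10174 bp at 3.81-fold, and replicate 2 as peaks of 8967 and 1165 bp at 4.16 and 3.24-fold. A shared region of 4519 bp followed past the end of the gene, over Aatf, at 3.17 and 4.33-fold.

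Evx1, an even-skipped type homeobox factor of the posterior streak, lies beside the HoxA cluster at chr6:52263492-52268372 on the plus strand (ENSMUSG00000005503.8). Its region of 9160 bp, chr6:52259963-52269122, held the whole gene and the lincRNA 5730457N03Rik, from 3529 bp before to 5630 bp after the first start. Each replicate had 2 peaks in it, 3.47 and 4.16-fold in replicate 1, and 3.65 and 5.09-fold in replicate 2. The stronger peak of replicate 1 began 7 bp after the start site, whereas that of replicate 2 began 1807 bp before it. Of the merged regions, 87 were at least as wide.

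Mesp1, a bHLH factor of nascent mesoderm and the earliest cardiovascular progenitors, lies at chr7:86937127-86938674 on the minus strand (ENSMUSG00000030544.5). Its region chr7:86936887-86939107, 2221 bp wide, held the whole gene: 546 bp untranslated, 729 bp coding and 273 bp intron. Replicate 2 gave the highest fold enrichment of the set there, 6.84 with a −log10 q of 13.6, while replicate 1 gave 4.21 with a −log10 q of 5.35. The peak of replicate 1 began 42 bp inside the gene and did not reach the start site, and that of replicate 2 ran from 433 bp before to 1787 bp after it.

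A second shared region of 2473 bp lay 3857 to 1385 bp upstream of Mesp1, at 3.03-fold in replicate 1 and 3.30-fold in replicate 2. It was poor in CpG, 1.21 per 100 bp, against 5.18 in the region over the gene. The region farthest upstream, 461 bp wide and 5415 to 4955 bp upstream, was found in replicate 2 alone at 3.34-fold. The locus thus held 3 regions, the most of any of the 10.

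Mesp2, the bHLH factor that sets somite boundaries, lies at chr7:86955613-86958317 on the plus strand (ENSMUSG00000030543.8), divergent from Mesp1, with 16939 bp between the start sites. Its region chr7:86955514-86956813 was 1300 bp wide, of which 831 bp were coding. The fold enrichment was 3.45 in replicate 1 and 5.17 in replicate 2, with a −log10 q of 4.14 and 8.35. Replicate 1 covered the start site from 99 bp before to 1200 bp after it, but the peak of replicate 2 was 614 bp wide and lay 159 to 772 bp inside the gene. Where 50% of a region had to be covered in each replicate, 7 loci kept a shared region, and Mesp2 was the one lost.

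Across the Mesp1 and Mesp2 pair with 20 kb on both sides there were 12 merged regions. Of the 12, 3 were shared, against 44.2% of all merged regions, 4 came from replicate 1 and 5 from replicate 2. The 3 shared regions were those over the genes and the one just upstream of Mesp1. The remainder were scattered around the pair without a partner in the other replicate.

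Tbx6, a T-box factor that directs cells to paraxial mesoderm in place of a neural fate, lies at chr7:133924997-133929074 on the plus strand (ENSMUSG00000030699.10). Its only region, chr7:133919540-133921222, was found in replicate 2 alone at 3.10-fold with a −log10 q of 1.72, and the nearest peak of replicate 1 was 10031 bp away. It lay 5457 to 3775 bp upstream, over the neighbouring genes Ypel3 and Gm9967, and did not reach the body of Tbx6. No peak of either replicate touched the gene itself. The nearest shared region, 16808 bp past the start and over Aldoa, had 2.94-fold in replicate 1 and 3.12-fold in replicate 2.

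Msgn1, a bHLH factor of the presomitic mesoderm, lies at chr12:11215188-11215754 on the minus strand (ENSMUSG00000047002.1), the shortest of these genes. Its only region, 670 bp at chr12:11215809-11216478, was found in replicate 1 alone at 3.02-fold with a −log10 q of 1.24, the weakest call of the set. It ended 55 bp before the start site, and the nearest peak of replicate 2 was 56463 bp away. Tbx6 and Msgn1 thus had no region found in both replicates at their loci, unlike Mesp2, which also acts in the paraxial mesoderm. A missing peak means that none passed the caller's threshold, and signal below it was not measured here.

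**Figure D2:**
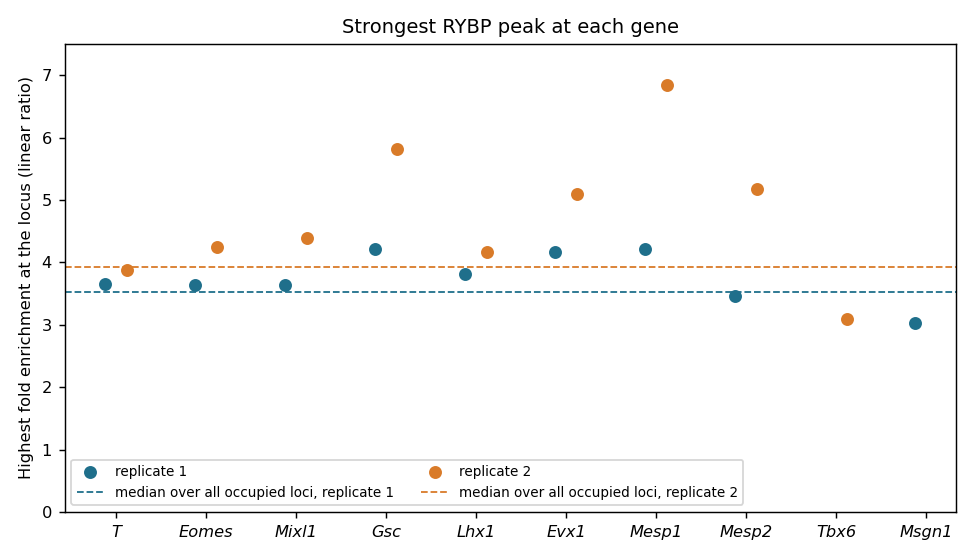
Highest fold enrichment of any peak at each locus, a linear ratio of ChIP over background as the caller gives it, in replicate 1 (blue) and replicate 2 (orange), with dashed lines at the median of all loci that hold a peak (3.53 and 3.92). Replicate 2 lies above replicate 1 at all 8 genes with both, and Mesp1 shows the widest gap, 4.21 against 6.84.

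In replicate 1 the highest fold enrichment at the 9 loci with a peak ranged from 3.02 to 4.21 with a median of 3.65, against a median of 3.53 over all 9744 loci with a peak. In replicate 2 it ranged from 3.10 to 6.84 with a median of 4.38, against 3.92 over 11911 loci. Of these occupied loci, 25% lay under 3.16 and 95% under 4.89 in replicate 1, and 25% under 3.44 and 95% under 5.84 in replicate 2. Most of the factors lay above the middle of this range in each replicate. Mesp1 was at percentile 82.6 in replicate 1 and 98.8 in replicate 2, and Gsc at 82.8 and 94.9. T was at percentiles 56.8 and 48.1, near the middle in both, and Mesp2 moved from 45.0 to 88.0. Evx1 was at 81.3 and 86.8, Lhx1 at 65.6 and 60.5, Mixl1 at 56.6 and 69.0, and Eomes at 56.8 and 63.8. Low in the range were Msgn1, at 14.8 in replicate 1, and Tbx6, at 7.97 in replicate 2.

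The lists were normalised separately, so means over the replicates only order the genes. Mesp1 stood first at 5.53 ± 1.86 (SD, n = 2), followed by Gsc at 5.01 ± 1.13. Evx1 had 4.63 ± 0.658 and Mesp2 4.31 ± 1.21. Mixl1 (4.01 ± 0.523), Lhx1 (3.98 ± 0.249), Eomes (3.94 ± 0.424) and T (3.76 ± 0.164) closed the order. Each gene differed from its neighbour in this order by less than the larger of their SDs. Replicate 2 was higher at all 8 genes, so these SDs include that offset and do not measure how sure the order is. Mesp1 stood first through replicate 2 alone, at 6.84 against 5.81 at Gsc, while both had 4.21 in replicate 1. The order of neighbours was not tested and is not resolved.

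All 8 genes with peaks in both replicates had the higher fold enrichment in replicate 2, against 78.3% of the 8983 loci with peaks in both. The ratio of replicate 2 to replicate 1 was 1.06 at T, 1.09 at Lhx1, 1.16 at Eomes, 1.20 at Mixl1, 1.22 at Evx1, 1.38 at Gsc, 1.5 at Mesp2 and 1.63 at Mesp1. Its median was 1.21, against 1.14 over all such loci. Most loci with peaks in both replicates thus had the same direction as these genes.

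**Figure D3:**
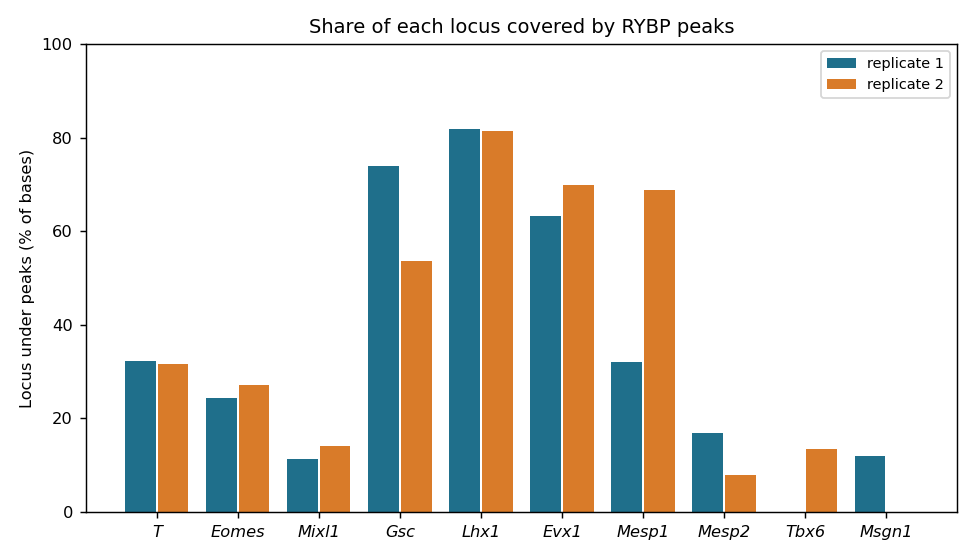
Share of each locus, the gene body with 5 kb upstream, that lay under peaks of replicate 1 (blue bars) and replicate 2 (orange bars), in percent of bases. Lhx1, Evx1 and Gsc are covered over more than 50% of the locus in both replicates, while Mesp1 reaches that share in replicate 2 alone.

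The factors fell into broad and narrow patterns of coverage. Lhx1 had 81.8% of its locus under peaks in replicate 1 and 81.4% in replicate 2, and Gsc had 74.0% and 53.5%. Evx1 had 63.1% and 69.9%. In these 3 homeobox genes RYBP extended over much of the body of the gene and not over the start site alone. This was not particular to them, since the merged region at Mesp1 also held its whole gene. Among the related genes described below, merged regions covered 93.4% of the Tbx1 locus and 89.2% of the Cdx2 locus. T (32.2% and 31.5%) and Eomes (24.3% and 27.2%) had intermediate coverage, similar in both replicates. Mixl1 (11.4% and 14.1%) and Mesp2 (16.9% and 7.97%) were narrow. Mesp1 differed most between the replicates, with 32.0% in replicate 1 and 68.7% in replicate 2.

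Merged regions covered a median of 33.4% of the 10 loci, against 3.59% over all loci that held a region and 14.6% over those of like length. The shared regions at these genes had a median width of 3524 bp, against 1421 bp over all shared regions, and 7 of the 9 were wider than that. The replicates shared 46.6% (Mesp1) to 88.6% (Eomes) of the bases that either covered, with 47.2% at Mesp2, 85.4% at Lhx1 and 80.7% at Mixl1. No test of these widths was available.

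**Figure D4:**
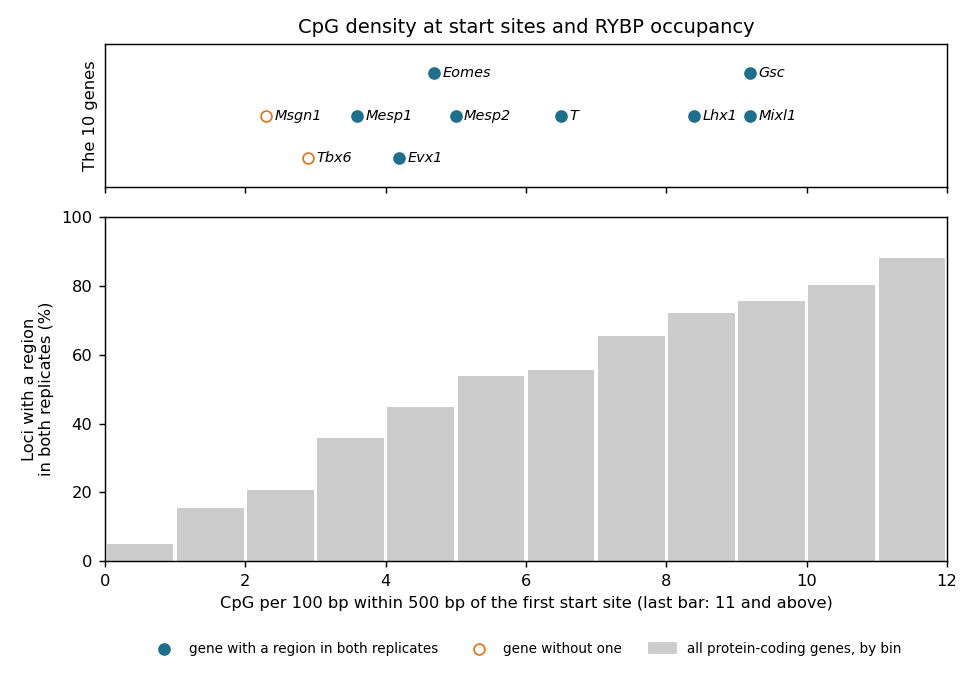
Upper panel, the 10 genes placed by CpG per 100 bp within 500 bp of the first start site (height only separates the names); filled points have a region in both replicates and open points do not. Lower panel, the percent of all protein-coding genes in each CpG bin whose locus holds a region found in both replicates, rising from 4.98% in the lowest bin to 88.2% in the highest, with Tbx6 and Msgn1 in the bin at 20.7%.

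The rule did not use base composition. CpG density within 500 bp of the first start site was 9.19 per 100 bp at both Mixl1 and Gsc, 8.39 at Lhx1, 6.49 at T, 5.0 at Mesp2, 4.70 at Eomes, 4.20 at Evx1 and 3.60 at Mesp1. All these genes had a region in both replicates. Tbx6 had 2.90 and Msgn1 2.30, below the other 8, and neither had one. The median over all genes was 4.10.

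With 3 CpG per 100 bp as the bound of a CpG-rich start, 8 of 8 CpG-rich genes had a shared region against 59.8% of all CpG-rich genes, and 0 of 2 CpG-poor genes against 11.3% of all CpG-poor genes. That bound was chosen after the values were seen and falls between Tbx6 at 2.90 and Mesp1 at 3.60. With a bound of 2, all 10 genes were CpG-rich and 8 had a shared region. With a bound of 4, 7 of 7 CpG-rich genes and 1 of 3 CpG-poor genes, Mesp1, had one. No share over all genes is given for the bounds of 2 and 4, only the shares by bin. Over the whole genome the share with a shared region was 20.7% of the 1712 genes between 2 and 3 CpG per 100 bp, 35.7% between 3 and 4, 44.8% between 4 and 5, and 75.7% between 9 and 10. Tbx6 and Msgn1 lie in the bin from 2 to 3, but among the 52 related genes described next, 8 of the 9 in that bin had a shared region: Lefty1, Lefty2, Foxh1, Sp8, Hes7, Hand1, Etv2 and Tbr1, with Cdx4 the exception. These were named after their values were seen.

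The regions themselves had a median of 4.02 CpG per 100 bp, against 4.09 over all merged regions. The 9 shared regions ranged from 1.21 to 7.58 with a median of 5.18, and the median of all shared regions was 6.02. The 5 single-replicate regions ranged from 1.04 at Msgn1 to 4.22 at Tbx6 with a median of 1.62. The 4 lowest values were in regions that did not cover a start site: 1.04 in the region that ended 55 bp before Msgn1, 1.08 and 1.21 upstream of Mesp1, and 1.62 upstream of Gsc.

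The genes that signal to these factors, and those that act after them, were read in the same way from a list of 52. Of these, 44 loci (84.6%) had a region found in both replicates, 3 had regions in single replicates alone and 5 had none, beside the 38.9% of all loci given above. Many of these loci are long, which raises the chance of holding a region, and no test was made of the list. The fold enrichments below are those of the highest peak at the locus in each replicate.

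Among 11 inducing signals and antagonists, 9 had a shared region. Wnt3, the Wnt ligand that starts the streak, had 4.47-fold in replicate 1 and 4.34-fold in replicate 2, and Fgf8, needed for cells to migrate out of it, had 4.06 and 4.43. Tdgf1, the Nodal co-receptor, had peaks of 3.16 and 3.28-fold in separate places in the replicates. Cer1, a secreted Nodal and BMP antagonist, had no region.

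Of 10 transducers, 9 had a shared region. Lef1, a nuclear effector of Wnt signalling, had 5.33 and 4.88-fold, and the receptor Fgfr1 had 4.60 and 5.44. Ctnnb1, which encodes β-catenin, was the exception, with a peak of 4.62-fold in replicate 2 alone.

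Of 17 streak, mesoderm and segmentation genes that act downstream, 15 had a shared region, and by the smaller value of the replicates the highest were the zinc finger factors Sp8 (4.55 and 6.39-fold) and Sp5 (4.40 and 4.60-fold), both targets of Wnt signalling. Cdx4, a caudal-type homeobox factor, and Aplnr, the apelin receptor, had none. Kdr, which encodes the FLK1 receptor used for the sort, had 3.38 and 4.0-fold. Dll1 and Dll3, Notch ligands of the paraxial mesoderm in which Tbx6 and Msgn1 act, had shared regions. The highest peaks at their loci had 4.0 and 6.48-fold and 3.55 and 7.94-fold, respectively. At Dll3, no shared region lay within 2.5 kb of a start site. Kdr, Dll1 and Dll3 were singled out after their values were seen.

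Among 14 T-box paralogues of T, Eomes and Tbx6, 11 had a shared region. By the smaller value of the replicates, the highest were Tbx18, a factor of epicardium and somite, at 5.42 and 7.05-fold, and Mga, itself a subunit of a non-canonical Polycomb complex, at 5.30 and 6.09, while Tbx3 had the highest value in replicate 2 (5.02 and 8.5-fold). Tbx19 and Tbx22 had no region, and Tbx10 had peaks of 3.17 and 3.15-fold that did not overlap. Of the 3 T-box factors among the 10 genes, T and Eomes had a shared region and Tbx6 did not.

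**Figure D5:**
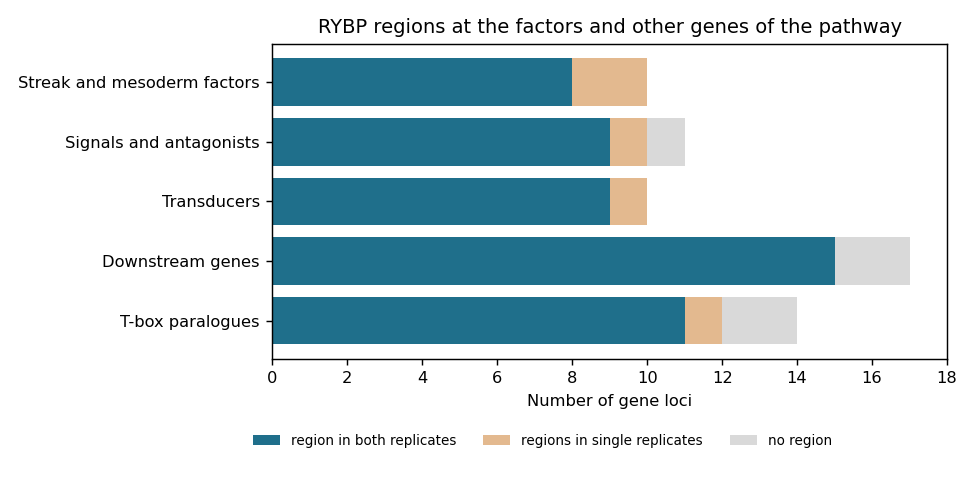
Number of gene loci, out of each list, with a region found in both replicates (blue), with regions in single replicates alone (tan) and with no region (grey). The shared part is 8 of 10 for the streak and mesoderm factors, 9 of 11 for signals, 9 of 10 for transducers, 15 of 17 for downstream genes and 11 of 14 for T-box paralogues.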

How the data were processed

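RYBP ChIP-seq of FLK1+ embryoid body cells was read from the peak files of 2 replicates and their merged list. Per the labels and methods, the authors aligned 37 bp read pairs to mm9 with Bowtie 1.1.2b, removed duplicates, called broad peaks per replicate with MACS2 2.0.10 and merged them with bedtools. The deposited peak columns hold fold enrichment (a linear ratio, ChIP over local background), −log10 p, −log10 q and a score made from q. The peak lists carry no read depth. The merged list equalled the union of both lists for 22409 of 22409 regions once the starts of replicate 2 were moved by 1 bp, so positions may be off by 1 bp.

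From these, overlaps with GENCODE gene models were computed with Python 3.11.15, pandas 2.3.3, numpy 2.4.6 and scipy 1.17.1, tested on simulated intervals. All 10 genes were named, and of the pathway list, in each role, the genes with no region, those not shared, and the 2 with the highest smaller-of-replicates fold enrichment. The genes and lists were chosen with earlier results of these data known. The windows of 200 bases took the place of the planned central parts of regions, which hold transcribed sequence, and were chosen after peak positions were seen. The alternatives are in the closing section.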

Additional observations from a re-analysis of the deposited data

How the results depend on the processing

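Of 53 alternative values, 42 stayed and 11 moved. Staying meant within 1.5 times a count, or within the interval or spread of a share or median. These bounds are wide for counts this small, and a fall from 10 loci with a region to 8 counted as staying. The 14 regions at the 10 loci became 8 with peaks of −log10 q of at least 2, 8 with the gene body alone, 36 with 20 kb on both sides and 39 with regions given to the nearest start site. The share found in both replicates, 64.3%, became 100% with −log10 q of at least 2 and 100% in the gene body alone. It became 41.7% with 20 kb on both sides, and 50% where peaks of each replicate had to cover 50% of a region. The 41.7% and the 50% counted as staying, since both lie inside the wide interval of 35.1 to 87.2. The 41.7% is below the 44.2% of all merged regions, whereas 64.3% is above it. Median coverage, 33.4%, became 17.1% with 20 kb on both sides and 28.1 to 29.3% with a single replicate. Median CpG density of the regions, 4.02 per 100 bp, became 4.63 to 4.79 with a single replicate. The cause was not tested beyond the construction of each alternative.

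Loci with a shared region numbered 7 to 9 and pathway loci 40 to 46 throughout. Without replicate 1 or without replicate 2, 9 loci had a region, with 15 and 12 peaks. The CpG bounds of 2, 3 and 4 per 100 bp, all chosen after seeing the data, gave 8 of 10, 8 of 8 and 7 of 7 CpG-rich genes with a shared region. At the bound of 3, 59.8% of all CpG-rich genes had one, and no such share is given for 2 and 4. No paired analysis was possible because the ChIP samples form 1 group and the inputs that share their numbers were not analysed here. Replicate 2, the less deeply sequenced, had more peaks. How depth bears on a missing peak was not tested.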

Other observations

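Within 20 kb of the 10 genes but outside the loci lay 22 further merged regions that belong to no other locus of the set. Of the 22, 6 were found in both replicates, against 44.2% of all merged regions. The 6 shared regions were 3 around Eomes, 1 past the end of Lhx1, 1 past the end of Evx1 and 1 beyond Tbx6. The Eomes region farthest from the gene, 27902 bp after its start, was rich in CpG at 9.03 per 100 bp and lay over Golga4, with 3.72-fold in replicate 1 and 3.05-fold in replicate 2. The Evx1 region, 8436 bp after the start, had 3.04 and 4.25-fold.

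The start sites of Hoxa13, the last gene of the HoxA cluster, and Evx1 are 52618 bp apart. Between them there were 7 merged regions, 5 of them in both replicates, against 44.2% of all merged regions. The interval ends at the Evx1 start, so the shared region over Evx1 described above overlaps it and is not a separate observation.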
